A study of Mus musculus with 8 samples.

Results

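Among single cells labelled as stroma of mouse colon assembloids, a group of epithelial cells carried the keratins of the basal layer of squamous epithelium. Cells were chosen in the 2 assembloid stromal libraries by raw counts of unique molecular identifiers (UMIs, each standing for 1 captured transcript). A cell needed at least 500 detected genes, at most 10% of UMIs from mitochondrial genes, at least 2 UMIs of Krt5, at least 2 of Krt14, at least 1 of Krt15 and at most 5 of Col1a2, a collagen gene of fibroblasts. This rule took 721 of 18068 cells of the stromal libraries, and the whole series held 77108 cells that passed the same quality limits. Of the 721 cells, 688 lay in stromal replicate 1 and 33 in stromal replicate 2, so nearly every basal squamous cell came from 1 library. The keratin levels chose the cells and are given as a description, without a test.

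The study combined epithelial organoids and cultured stromal cells of mouse colon into assembloids, and sequenced dissociated single cells with the 10x Genomics 3′ v3 chemistry. The 8 libraries held the stroma and the epithelium of assembloids, and the epithelium of organoids and of colon tissue, with 2 libraries of each kind. All cells came from C57BL/6 mice, young adult males, and no genetic change is named for these samples. The stromal cells had been isolated from colon fragments after the crypts were shaken off with EDTA, expanded on plastic in medium with serum, and joined with organoids in Matrigel. Organoids were kept in full medium, with EGF, the TGF-beta receptor inhibitor A83-01, a Wnt surrogate, the GSK3 inhibitor CHIR-99021, R-spondin 1 and noggin, and the assembloid medium left out the last 4 of these. The ROCK inhibitor Y-27632 was in the stromal cell medium and was given to organoids at seeding. The stromal cells are described as EpCAM-negative and came from 2 mice. The replicates of each group are described as biological. How the stromal cells were separated from the epithelium, and which mice lie behind each epithelial library, are not given in the sources used here. Values below are given as stromal replicate 1 and then stromal replicate 2, or as replicates 1 and 2 of an epithelial group, in CPM, the UMIs of a gene summed over the cells and scaled to 1000000 UMIs in all.

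Squamous epithelium covers surfaces exposed to abrasion, such as skin, oral cavity, oesophagus and, in the gut, the anal canal, whereas the colon is lined by a simple columnar epithelium. Its basal cells sit on the basement membrane, hold on to it with hemidesmosomes, express the keratin pair Krt5 and Krt14 under the transcription factor p63 (Trp63), and divide. Their daughters leave the membrane, exchange these keratins for suprabasal ones such as Krt13 and Krt4 in moist squamous linings, and make cross-linked envelope proteins and desmosomes.

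The start regions of 4 genes on which the results turn are shown first, as 300 bases from 250 before to 50 after the RefSeq transcript start on mouse GRCm38.p6, 5′ to 3′ on the strand of the gene. Krt5 is the marker that chose the cells, and Krt13 marks a smaller group among them. Lgals7 and Lgals4 are galectin genes that lie next to each other on chromosome 7. They were read at opposite levels in basal squamous cells and in the epithelial libraries.
Krt5, chr15:101712856-101713155, minus strand: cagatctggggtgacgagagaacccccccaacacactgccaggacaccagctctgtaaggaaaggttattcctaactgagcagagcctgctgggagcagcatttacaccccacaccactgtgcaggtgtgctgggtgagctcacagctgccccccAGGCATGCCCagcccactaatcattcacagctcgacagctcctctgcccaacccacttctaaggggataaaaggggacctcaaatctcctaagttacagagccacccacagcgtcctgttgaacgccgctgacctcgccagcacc
Krt13, chr11:100121517-100121816, minus strand: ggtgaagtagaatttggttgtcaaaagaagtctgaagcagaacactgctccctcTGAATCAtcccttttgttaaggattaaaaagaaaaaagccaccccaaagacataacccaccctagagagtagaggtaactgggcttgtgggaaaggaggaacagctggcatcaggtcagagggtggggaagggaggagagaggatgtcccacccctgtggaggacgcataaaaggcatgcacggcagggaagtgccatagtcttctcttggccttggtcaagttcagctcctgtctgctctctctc
Lgals7, chr7:28864136-28864435, plus strand: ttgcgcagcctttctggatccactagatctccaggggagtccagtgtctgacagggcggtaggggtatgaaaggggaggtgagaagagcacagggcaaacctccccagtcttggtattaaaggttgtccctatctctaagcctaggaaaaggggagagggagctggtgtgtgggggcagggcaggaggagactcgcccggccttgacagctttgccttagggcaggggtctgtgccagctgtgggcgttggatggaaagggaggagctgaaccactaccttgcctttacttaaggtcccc
Lgals4, chr7:28833544-28833843, plus strand: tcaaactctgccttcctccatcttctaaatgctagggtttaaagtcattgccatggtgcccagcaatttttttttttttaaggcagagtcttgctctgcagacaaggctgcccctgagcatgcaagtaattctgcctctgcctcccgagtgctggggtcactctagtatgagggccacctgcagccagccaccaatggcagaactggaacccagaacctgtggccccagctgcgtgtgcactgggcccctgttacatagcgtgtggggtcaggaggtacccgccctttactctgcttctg
Capitals mark the matches to 4 motifs searched on both strands. The first is the half-site of the p53 and p63 family, searched by name, which matched once in the Krt5 window with its first base 95 bases before the start. The second is AP-1 (TGANTCA), which matched once in the Krt13 window, 196 bases before the start. The third, AP-2 (GCCNNNGGC), and the fourth, the TATA box (TATAAA), matched in none of these 4 windows, and no matches overlapped. Of 32851 RefSeq mouse promoters of this length, 8.356% held the p53 and p63 half-site, 7.808% AP-1, 16.59% AP-2 and 13.62% the TATA box. By symbol, 6 of 7 genes looked up had an entry among the RefSeq sequences, and 4 of them are printed. The one left was Krt15.

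Basal squamous cells made up 7.63% of the cells of stromal replicate 1 (exact binomial 95% interval 7.09% to 8.19%) and 0.365% of stromal replicate 2 (0.251% to 0.512%). These intervals cover counting error only and lie far apart. None of the 6 epithelial libraries held a cell that met the rule: 0 of 29410 and 0 of 7722 cells in assembloid epithelium, 0 of 4872 and 0 of 8034 in organoid epithelium, and 0 of 4692 and 0 of 4310 in tissue epithelium. A count of 0 allowed a share of up to 0.0102% in the largest and 0.0696% in the smallest of these libraries. All cells of the stromal libraries together held 57656 and 3553 Krt5 UMIs, whereas no epithelial library held more than 1.

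Single basal squamous cells carried these keratins well above the limits of the rule. The median was 56 Krt5 UMIs per cell in replicate 1 (range 2 to 306) and 82 in replicate 2 (35 to 199). For Krt14 the medians were 91 (2 to 950) and 153 (41 to 703), and for Krt15 they were 77 (1 to 1379) and 47 (8 to 189). Few cells lay at the keratin limits: in replicate 1, 4 cells had exactly 2 Krt5 UMIs, 6 had exactly 2 Krt14 UMIs and 10 had exactly 1 Krt15 UMI, and in replicate 2 there were none of each. Just outside, 8 cells of replicate 1 had 1 Krt5 UMI, 6 had 1 Krt14 UMI and 24 had no Krt15 UMI with the rest of the rule met, against 0, 0 and 3 in replicate 2. The collagen limit cut through more cells. It kept 65 and 7 cells with 4 or 5 Col1a2 UMIs and left out 234 and 1 cells that met the keratin rule with 6 or more, of which 195 and 1 had above 10. In replicate 1, these left-out cells had a median of 35697.5 UMIs per cell against 21720.5 in the basal squamous cells. Without the Col1a2 limit the share was 10.2% in replicate 1 and 0.376% in replicate 2, and with at most 1 Col1a2 UMI it was 4.19% and 0.111%. No doublet caller was run, so the Col1a2 limit was the only safeguard against 2 cells under 1 barcode.

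**Figure D1:**
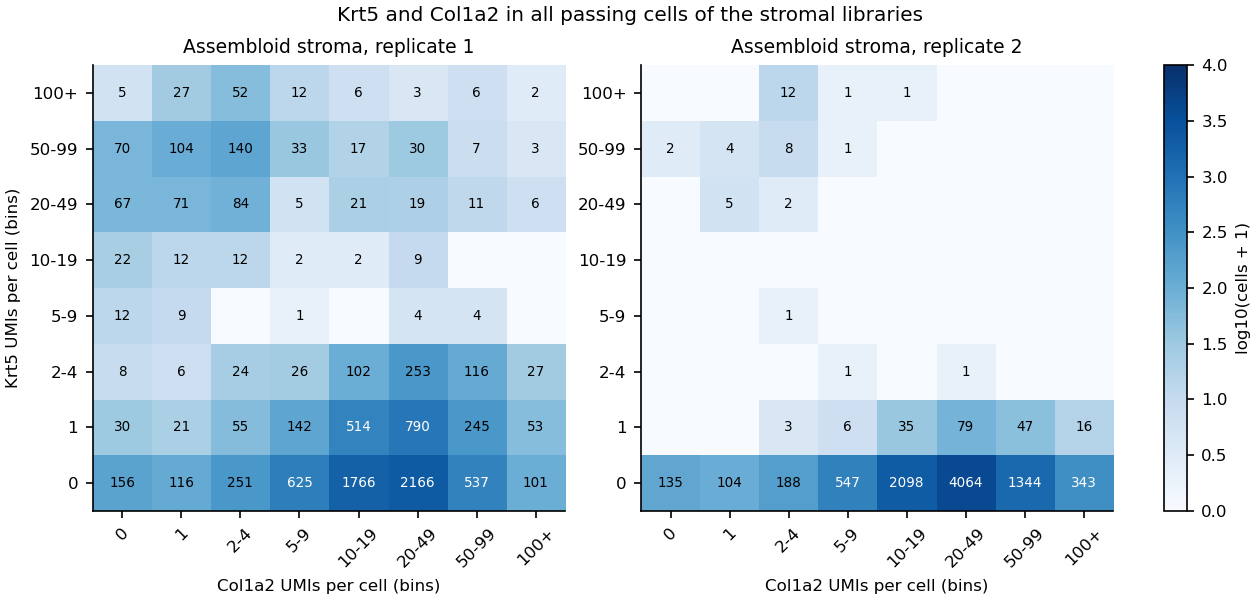
Cells of the 2 stromal libraries by their raw Krt5 UMIs and Col1a2 UMIs, both on log-spaced bins, with the colour giving the number of cells per bin on a log scale. Cells with many Krt5 UMIs and few Col1a2 UMIs form a separate group in replicate 1 (688 basal squamous cells), and the same place holds 33 cells in replicate 2.

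Basal squamous cells were sequenced in depth. Their median was 21720.5 UMIs and 4150 genes per cell in replicate 1 and 28809 UMIs and 4653 genes in replicate 2, against 14720 and 13212 UMIs in the other cells of the stromal libraries, and their median mitochondrial share was 3.7% and 4.2%. Here and below, the other cells are the 8098 and 9014 cells that did not meet the keratin rule, without the 234 and 1 cells that met it with 6 or more Col1a2 UMIs. Summed, the basal squamous cells gave 16527998 and 1012181 UMIs. Of the barcodes, 30 occurred in both stromal libraries, and 1 of these belonged to a basal squamous cell. To compare shares of cells at 1 depth, each cell was thinned to 2000 UMIs, which left out 3 and 0 basal squamous cells. It also left out 7020 of 27891 and 793 of 6963 cells of assembloid, 110 of 4872 and 3419 of 8034 of organoid, and 2249 of 4686 and 1539 of 4306 of tissue epithelium, so the shares in those groups speak for their deeper cells. At that depth, 96.9% and 100% of them had a Krt5 UMI and 95.9% and 100% a Krt14 UMI, against 4.78% and 0.301% and 6.57% and 0.579% of the other stromal-library cells. The small shares among those other cells were in each case higher in replicate 1, the library with more basal squamous cells.

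The name basal squamous epithelium was then set beside genes that the rule had not used. Trp63, the gene of p63, stood at 93.1 and 60.3 CPM in the basal squamous cells and at 0.876 and 0.0938 CPM in the other cells of the same libraries. Col17a1, a collagen of hemidesmosomes, stood at 179 and 124 against 3.24 and 0.70 CPM, and Itgb4, the hemidesmosomal integrin chain, at 186 and 181 against 4.01 and 1.54 CPM. In each case the basal squamous cells were high in both libraries. The 234 and 1 cells left out for Col1a2 also carried these genes, with Trp63 at 38.8 and 23.9, Col17a1 at 84.1 and 108 and Itgb4 at 101 and 227 CPM. Summed over all 13 listed hemidesmosome and laminin genes, the contrast was smaller, at 1669.5 and 1487.9 CPM against 741.69 and 684.2 in the other cells. Col17a1 and Itgb4 are also among the 20 genes that lead this contrast, given below. Since all cells were divided by measured genes, these contrasts are a description with no test. By ratio to the other cells (CPM + 1, the lower of both libraries), the leading genes with at least 100 CPM in both libraries were Lgals7 (134 and 659 times), the cell-cycle checkpoint protein gene Sfn (87.5 and 383), Urah (83.7 and 249), Krt13 (83.3 and 171) and Krt17 (76.9 and 384). These ratios depend on the cells left out for Col1a2: with them counted among the other cells, Lgals7 stood at 33.8 and 386, Sfn at 23.6 and 340.3 and Krt13 at 15.5 and 169 times. The next 15 genes by the first ratio were Aqp3, Krt6a, Cstdc5, Dmkn, Serpinb5, Perp, Sprr2a3, Ly6d, Fxyd3, S100a14, Sprr1b, Col17a1, Fabp5, Fgfbp1 and Itgb4.

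Markers of other cell types were summed over lists for the same cells. The immune list of 8 genes reached 0.666 and 0 CPM, with Ptprc, Cd3e and Cd207 at 0 UMIs in both libraries. The endothelial list reached 4.90 and 2.96 CPM, the smooth muscle list 8.35 and 1.98, the glial list 1.03 and 1.98, the neuronal list 4.66 and 3.95, the list of melanocytes and Merkel cells 1.88 and 1.98, the mesothelial list 2.42 and 1.98 and the list of prostate, mammary and salivary gland 7.08 and 0 CPM. Each of these lists came to 4 UMIs or fewer in replicate 2, where 3 UMIs equal 2.96 CPM. The list of urothelium reached 85.3 and 87.9 CPM, but nearly all of it was Gata3 and Foxa1, and the uroplakin genes Upk1b and Upk3a were at 0 UMIs in both libraries. The fibroblast list of 14 genes was the exception, at 668 and 880.3 CPM in the basal squamous cells against 13489 and 15872 in the other stromal-library cells. Colonic epithelial cells in the same libraries carried 523 and 1070.1 CPM of the same list. They were chosen by at least 5 Lgals4 UMIs and, like the basal squamous cells, at most 5 Col1a2 UMIs. The shared limit on a fibroblast gene fixed part of this likeness. The compared cells of the assembloid epithelial libraries carried 359.7 and 104 CPM. Those cells, unlike the basal squamous cells, were limited to at most 5 UMIs of Col3a1, a gene of the list. This limit fixed part of the gap. Col3a1 was counted at 6 or more UMIs in 204 and 17 basal squamous cells. The part of this fibroblast RNA in the results was not tested.

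Epcam, the surface protein that the stromal cells are described as lacking, was read in the basal squamous cells. At least 1 Epcam UMI was found in 679 of 688 and 32 of 33 basal squamous cells, with a median of 13 UMIs per cell in both libraries. Its level was 639.6 and 480.1 CPM, against 2060.5 and 2256 in assembloid epithelium, while organoid epithelium held 1483 and 941 CPM and tissue epithelium 1920.5 and 1888 CPM. The basal squamous cells lay below all 6 epithelial libraries and above the other stromal-library cells, at 34.1 and 20.1 CPM. After thinning, 65.4% and 54.5% of the basal squamous cells had an Epcam UMI.

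Basal squamous cells were compared with colonic epithelium in 1 fit of edgeR's quasi-likelihood test to 8 sums of UMIs, 2 per group, with Benjamini-Hochberg adjustment over 18874 genes and a threshold of 0.05. The first comparison asked how they differed from the colonic epithelium of the same kind of culture. Against assembloid epithelium, 5149 genes were higher in the basal squamous cells (27.3% of genes tested) and 5829 were lower (30.9%), with a median log2 fold change over all genes of -0.17. Against tissue epithelium, 5619 were higher (29.8%) and 5558 lower (29.4%), with a median of -0.14. Both comparisons use the same basal squamous sums, so their values are not independent of each other. The stromal and epithelial libraries also differ as libraries, which cannot be told apart from the cell type in these comparisons. For that reason the basal squamous cells were also set against 33 and 25 colonic epithelial cells within the same 2 stromal libraries, a comparison chosen after seeing the data, in which 999 genes were higher (5.54% of 18043) and 1167 lower (6.47%). Both kinds of cells were picked there by counted genes, both with at most 5 Col1a2 UMIs. Lgals4, which picked the colonic cells, is not reported for it. Each stromal library gave 1 sum of each kind there, and the fit did not model this pairing. A planned correction for the kind of library rests on 62 and 20 fibroblasts found in the assembloid epithelial libraries. The fibroblasts of both kinds of library had above 5 UMIs of Col1a2 and of Col3a1 and at most 2 of Tyrobp. They were also chosen with no UMI of Krt5, Krt14 or Krt8, so the lost call of Krt8 below was fixed by that choice. With the shift between libraries measured in them subtracted, 665 genes were higher and 833 lower than in assembloid epithelium, and of 80 differences named in the text 36 lost their call. These were Krt6a, Krt8 and Krt16 of the keratins, Trp63, Gata3, Klf5, Cdx1, Hnf4a, Hoxa9 and Hoxa11 of the transcription factors, Col17a1, Itgb4, Itga3, Lama3, Cdh3 and Perp of the adhesion genes, Epgn, Egfr, Notch1, Jag1, Wnt7b, Id3, Fgfbp1 and Fgfr2 of the signalling genes, and Lgals7, Lgals4, Dmkn, Ldha, Hist1h1b, H2afx, Urah, Car1, Phgr1, Pls1, Ly6g and Lypd8. A lost call was not always a smaller difference. Some of the 36 then had larger log2 fold changes, such as Cdh3 (9.27), Gata3 (6.02) and Perp (4.96). Others had smaller ones, such as Trp63 (4.23), Krt6a (1.90) and Lgals7 (0.73). The fibroblast sums of the assembloid epithelial libraries held only 438458 and 246297 UMIs. A further 14 differences changed direction. Krt18, Krt19, Epcam, Cdh1 and Dsg2 then passed as higher in the basal squamous cells, whereas Krt13, Ly6d, Dsg3, Barx2 and Jag2, of which those fibroblasts held no UMI, and Erbb3, Rrm2, Cdk1 and Hoxb7 did not pass in the other direction. Genes of the fibroblast list moved with the comparisons made without this correction: 9 of the 13 tested were higher than in assembloid epithelium (69.2%), 12 than in tissue (92.3%) and 1 within the stromal libraries (7.69%), with none lower. The limits on collagen genes by which the cells were chosen fixed part of these counts.

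Of the other keratins of squamous epithelium, 8 of 11 tested were higher than in assembloid epithelium and none lower, with a median log2 fold change of 6.21. The share called was 72.7%, beside 58.2% of all genes. A gene passed the filter on low counts if it was high enough in 2 of the sums. One nearly absent from colonic epithelium was thus tested through the basal squamous sums alone and could only be called higher. This fixed part of the counts of the squamous lists in advance. Against tissue 9 were higher and none lower (81.8%, beside 29.8% of all genes). Within the stromal libraries 7 were higher and none lower (63.6%, beside 5.54% of all genes). Krt6a and Krt16, keratins of activated and wounded keratinocytes, stood at 998 and 1246 CPM and 157 and 698 CPM. In assembloid epithelium they stood at 0.195 and 0.0838 and at 0.596 and 0.382 CPM. The log2 fold change of Krt6a was 13.08 ± 0.55 (SE, edgeR adjusted p = 2.32e-07), and within the stromal libraries it was 7.77 ± 0.52 (SE, edgeR adjusted p = 2.1e-07). Krt6a had no UMI in the tissue libraries, where the basal squamous cells were at least 12290-fold higher (against a floor of 3 UMIs per library). Krt6a and Krt6b are near-identical copies, and the division of reads between them is uncertain.

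Krt17, a keratin of basal cells in appendages and wounds, stood at 620 and 1694 CPM in the basal squamous cells, with 7 and 2 UMIs in all of assembloid epithelium and no UMI in tissue. Krt13, the acidic keratin of suprabasal cells in oesophagus, tongue and anal canal, stood at 331 and 187 CPM against 5.41 and 3.69 in assembloid and 0.277 and 0.379 in tissue epithelium. Its log2 fold change was 6.05 ± 0.38 (SE, edgeR adjusted p = 7.3e-07) against assembloid epithelium and 6.84 ± 0.59 (SE, edgeR adjusted p = 9.5e-07) within the stromal libraries. The keratins of cornified epidermis were scarce: Krt10 stood at 17.2 and 36.6 CPM, Krt1 had 7 and 10 UMIs and Krt2 had none.

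The 4 keratins of simple epithelium were all lower than in assembloid epithelium, beside 30.9% of all genes, with a median log2 fold change of -2.17, but none except Krt20 was near 0. Krt8, the basic keratin of columnar cells, stood at 323 and 301 CPM against 2662 and 3574 CPM, a log2 fold change of -3.08 ± 0.30 (SE, edgeR adjusted p = 1.13e-05). Its partners Krt18 and Krt19 stood at 426 and 363 and at 637 and 765 CPM, and differed by -1.09 ± 0.30 (SE, edgeR adjusted p = 0.00948) and -1.25 ± 0.28 (SE, edgeR adjusted p = 0.00332). Neither passed the test within the stromal libraries, at -0.66 (edgeR adjusted p = 0.187) and -0.84 (edgeR adjusted p = 0.0563). Krt7 did not pass against assembloid epithelium (-0.23, edgeR adjusted p = 0.671), and its replicates lay apart, at 406 and 115 CPM. In single cells, 104 of 688 and 5 of 33 basal squamous cells had no Krt8 UMI, and after thinning 34.3% and 27.3% had 1 or more against 97.1% and 96.4% of assembloid epithelial cells.

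Keratin genes lie in clusters by type, and the members read here come from both. On GRCm38 (GENCODE M21), Krt5 lies on the minus strand at chr15:101707070-101712898, and Krt6a (chr15:101689910-101694307) is its neighbour, while Krt8 lies farther along the same cluster at chr15:101996698-102004482. On chromosome 11, also on the minus strand, Krt13 (chr11:100117327-100121566), Krt15 (chr11:100131758-100135928) and Krt19 (chr11:100140810-100148665) follow each other, and Krt14 (chr11:100203162-100207548), Krt16 (chr11:100246091-100248902) and Krt17 (chr11:100256217-100261029) form a second run. Within the first run, Krt19 was lower in basal squamous cells than in assembloid epithelium and Krt13 was higher.

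**Figure D2:**
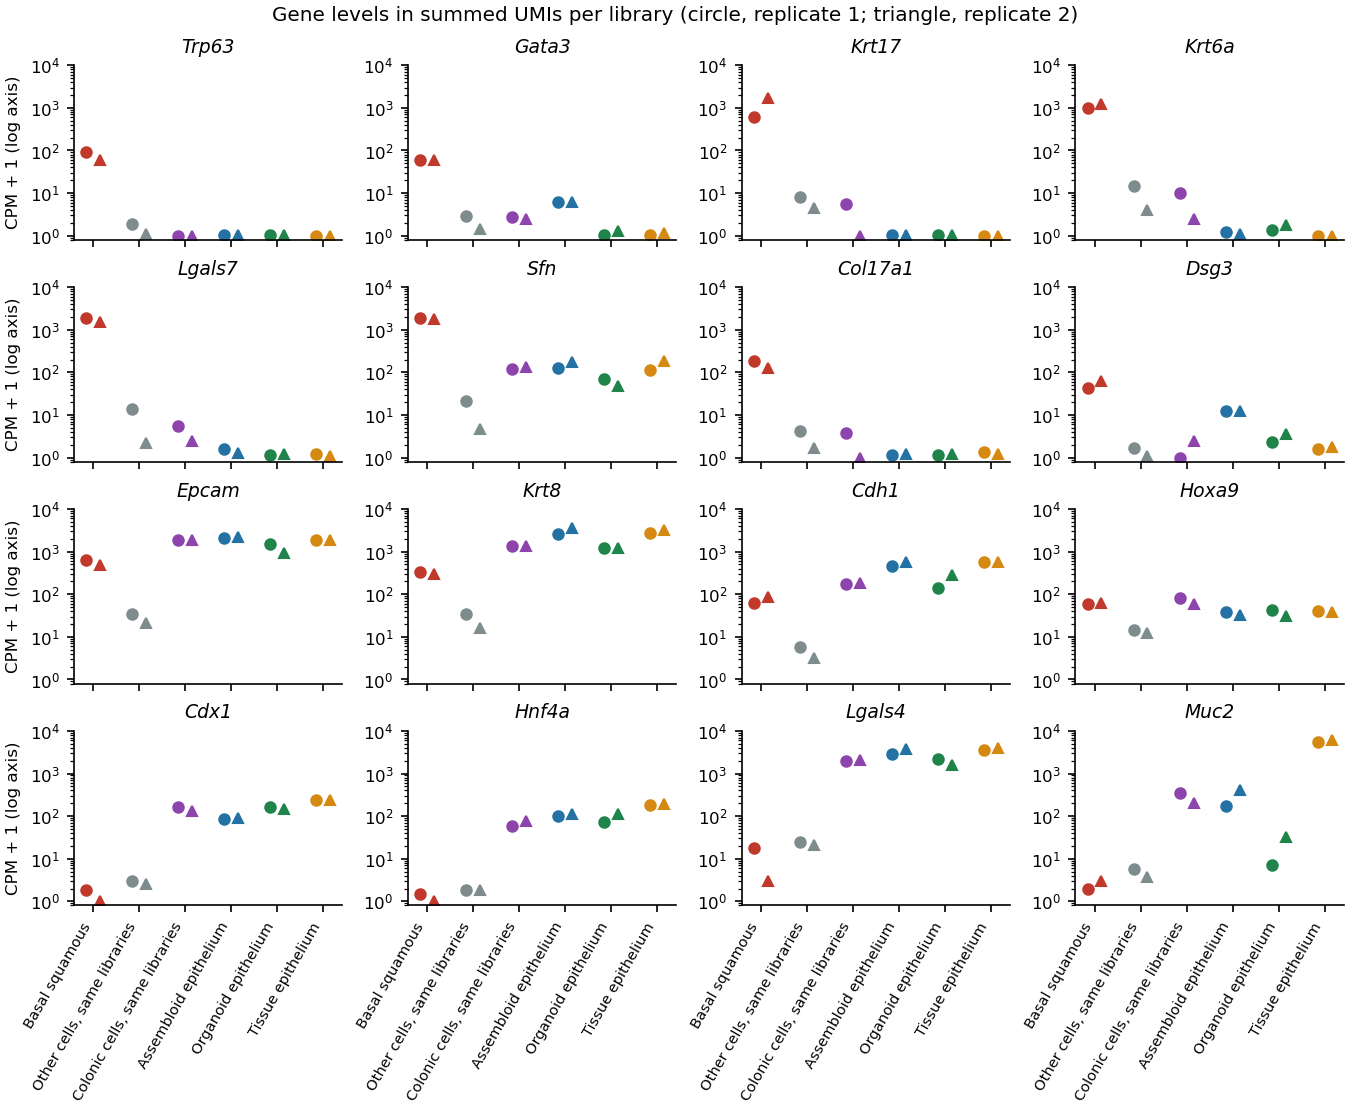
CPM of 16 named genes on a log axis (plus 1) in the basal squamous cells, the other cells and the colonic cells of the stromal libraries, and the epithelium of assembloids, organoids and tissue, with 1 point per library. Lgals7 lies far higher in the basal squamous cells than in any other group, while Krt8 lies higher in the colonic cells and in the 6 epithelial libraries. Lgals4 also lies higher in those libraries, and its level in the colonic cells was fixed by their choice.

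Among transcription factors of basal and stratified epithelium, 14 of 18 tested were higher than in assembloid epithelium and 2 were lower, with a median log2 fold change of 3.60. That made 88.9% called, beside 58.2% of all genes. Here too, genes such as Bnc1, with no UMI in any compared epithelial group, could only be called higher. The counts were 14 and 2 against tissue (88.9% called, beside 59.2% of all genes) and 13 and 1 within the stromal libraries (77.8% called). Within the stromal libraries 5.54% of all genes were higher and 6.47% lower. Trp63 had 5 and 6 UMIs in the whole of assembloid epithelium and differed by 11.08 ± 0.40 (SE, edgeR adjusted p = 1.17e-07). It had no UMI in tissue epithelium or in the colonic cells of the stromal libraries, which made it at least 742.2-fold and at least 14.3-fold higher in the basal squamous cells. Gata3, a factor of stratified epithelium and of urothelium, stood at 59.2 and 60.3 CPM against 5.33 and 5.21 and differed by 3.72 ± 0.43 (SE, edgeR adjusted p = 4.05e-05). Barx2, a homeobox factor, stood at 47.1 and 32.6 CPM against 1.5 and 1.19 and differed by 5.15 ± 0.32 (SE, edgeR adjusted p = 6.09e-07).

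Sox2, a factor of oesophageal and other squamous progenitors, stood at 23.5 and 23.7 CPM, with 2 and 1 UMIs in assembloid epithelium. Pax9 stood at 8.77 and 7.90, Sox15 at 37.1 and 18.8, Bnc1 at 12.9 and 22.7 and Tfap2a at 28.3 and 27.7 CPM, all of them higher than in assembloid epithelium, while Foxe1 had 4 and 0 and Tfap2b 4 and 0 UMIs. The 2 factors that were lower were Ovol1 and Klf5, a factor of dividing gut cells, which stood at 73.0 and 70.1 CPM against 220.1 and 279 in assembloid and 518 and 494 in tissue epithelium. Klf5 differed by -1.57 ± 0.23 (SE, edgeR adjusted p = 0.000177) against assembloid epithelium and by -2.15 ± 0.25 (SE, edgeR adjusted p = 1.62e-05) within the stromal libraries.

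The genes by which basal cells hold on to the basement membrane were higher in 9 of 13 cases and lower in none against assembloid epithelium, with a median log2 fold change of 1.18. That is a share of 69.2% called, near the 58.2% of all genes, and nothing is read from that share. The same 69.2% were higher, beside 27.3% of all genes. Against tissue 12 were higher and 1 lower, and within the stromal libraries 11 and 1. The shares called there were 100% and 92.3%. Of all genes 59.2% were called against tissue, and 5.54% were higher and 6.47% lower within the stromal libraries. Col17a1 showed the largest difference among the 13, at 179 and 124 CPM against 0.152 and 0.214, a log2 fold change of 9.95 ± 0.34 (SE, edgeR adjusted p = 9.3e-08). The integrin chains Itgb4 and Itga3 were higher by 1.70 ± 0.24 (SE, edgeR adjusted p = 0.00013) and 1.82 ± 0.24 (SE, edgeR adjusted p = 8.52e-05). The laminin chain Lama3 was higher by 1.93 ± 0.26 (SE, edgeR adjusted p = 0.000112), whereas Lamb3, another laminin chain, did not pass against assembloid epithelium (0.21, edgeR adjusted p = 0.437). Lamb3 passed within the stromal libraries, at 1.56 (edgeR adjusted p = 0.00407).

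Desmosomal and adhesion genes moved in both directions, with 11 of 18 higher and 5 lower against assembloid epithelium, 13 and 4 against tissue, and 11 and 4 within the stromal libraries. Against assembloid epithelium 88.9% of them were called, beside 58.2% of all genes. Against tissue it was 94.4%, beside 59.2%. Within the stromal libraries it was 83.3%, where 5.54% of all genes were higher and 6.47% lower. The classical cadherins went opposite ways. Cdh1, the cadherin of all epithelia, stood at 61.2 and 83.0 CPM against 457 and 574 and was lower by -2.64 ± 0.29 (SE, edgeR adjusted p = 2.64e-05). Cdh3, the cadherin of basal layers, stood at 33.4 and 38.5 CPM against 0.687 and 1.11 and was higher by 5.55 ± 0.36 (SE, edgeR adjusted p = 7.71e-07). So did the desmogleins: Dsg3, of stratified epithelium, differed by 2.31 ± 0.28 (SE, edgeR adjusted p = 5.18e-05), and Dsg2, of simple epithelium, by -2.78 ± 0.24 (SE, edgeR adjusted p = 5.09e-06). Perp, a desmosomal protein and p63 target, stood at 579 and 745 CPM against 131 and 162 and differed by 2.40 ± 0.26 (SE, edgeR adjusted p = 2.29e-05). The lower genes were Cdh1, Dsg2, Epcam, Cldn4 and Cldn7, with Epcam at -1.72 ± 0.34 (SE, edgeR adjusted p = 0.00148). The direction of Cldn4, a claudin of tight junctions, turned with the cells compared: at 149 and 126 CPM it was lower than in assembloid epithelium (215 and 297) but higher than in tissue (6.81 and 8.55) and in the colonic cells of the stromal libraries (67.8 and 87.1).

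Genes of squamous differentiation were higher in 18 of 21 cases and lower in 2 against assembloid epithelium, with a median log2 fold change of 6.71. Those called made 95.2% of the list, beside 58.2% of all genes, with the same limit from the filter on low counts. They were higher in 19 and lower in 2 against tissue, and higher in 16 and lower in none within the stromal libraries. Against tissue 100% were called, beside 59.2% of all genes. Within the stromal libraries 76.2% were higher, beside 5.54% of all genes. Sfn, which encodes 14-3-3 sigma, stood at 1837 and 1811 CPM against 128 and 177 and differed by 3.82 ± 0.38 (SE, edgeR adjusted p = 1.34e-05). Dmkn, of the upper layers of stratified epithelium, stood at 436 and 622 CPM against 0.790 and 0.158 and differed by 10.22 ± 0.71 (SE, edgeR adjusted p = 1.16e-06). Ly6d, a surface protein of keratinocytes, stood at 552 and 901 CPM against 61.9 and 53.4 in assembloid and 0.149 and 0.108 in tissue epithelium. Its log2 fold changes were 3.85 ± 0.31 (SE, edgeR adjusted p = 3.36e-06) and 13 ± 0.49 (SE, edgeR adjusted p = 4.72e-08). These values rest on few cells. The tenth of cells with the most Ly6d held 95.3% and 72.8% of its UMIs, and the median was 0 and 1 UMIs per cell. In basal squamous cells with 2 or fewer Krt13 UMIs, Ly6d stood at 101 and 171 CPM.

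Not every envelope gene differed from assembloid epithelium. Sprr1a, a cross-linked envelope precursor, stood at 589 and 903 CPM, against 258 and 326 in assembloid but 1.13 and 3.76 in tissue epithelium. It differed by 1.57 ± 0.44 (SE, edgeR adjusted p = 0.00975) from the first and by 8.85 ± 0.61 (SE, edgeR adjusted p = 6.01e-07) from the second. Sprr2a3 was read at 567 and 503 CPM and did not pass against assembloid epithelium (0.57, edgeR adjusted p = 0.0972), and reads of the Sprr2 copies may be divided uncertainly. S100a14, outside that list, did not pass either (0.71, edgeR adjusted p = 0.0528), though it passed under 4 of 22 alternatives, and Sprr2a3 under 3. Flg had 1 and 0, Sprr3 2 and 0 and Tgm3 0 and 0 UMIs, and Tgm3 and Klf4 were the 2 lower genes. Loricrin (Lor), a late protein of the cornified envelope, was among the higher genes, with 145 and 9 UMIs in 113 of 688 and 8 of 33 basal squamous cells. Cnfn, Krtdap and Spink5, of the upper layers, were higher too, at 2.00 and 51.4, 2.48 and 35.6 and 3.75 and 73.1 CPM. Most of these UMIs came from single cells in both libraries, except for Krtdap in replicate 1. There Krtdap had at most 9 of its 41 UMIs in 1 cell and stood at 1.94 CPM without it. In replicate 2, 1 cell held 50 of 52 Cnfn and all Krtdap and Spink5 UMIs, and in replicate 1 a cell held 30 of 33 Cnfn and another 37 of 62 Spink5 UMIs, without which they stood at 0.182 and 1.52 CPM. Involucrin (Ivl), an early envelope protein, stood at 49.9 and 31.6 CPM with 2 and 4 UMIs in assembloid epithelium.

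Lgals7 and Lgals4 are neighbours that were read at opposite levels. Their RefSeq starts, shown above, lie 30592 bases apart on the plus strand of chromosome 7. Lgals7, galectin-7 of stratified epithelium, stood at 1871 and 1480 CPM in the basal squamous cells and at 0.596 and 0.279 in assembloid, 0.144 and 0.194 in organoid and 0.192 and 0.0812 in tissue epithelium. Lgals4, galectin-4 of the intestinal lining, stood at 16.9 and 1.98 CPM and at 2896 and 3678, 2155 and 1614 and 3520 and 4057 CPM in the same order. The ranges of basal squamous and epithelial libraries did not overlap for either gene. The log2 fold changes against assembloid epithelium were 12.05 ± 0.54 (SE, edgeR adjusted p = 1.81e-07) and -7.76 ± 0.60 (SE, edgeR adjusted p = 2.42e-06).

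**Figure D3:**
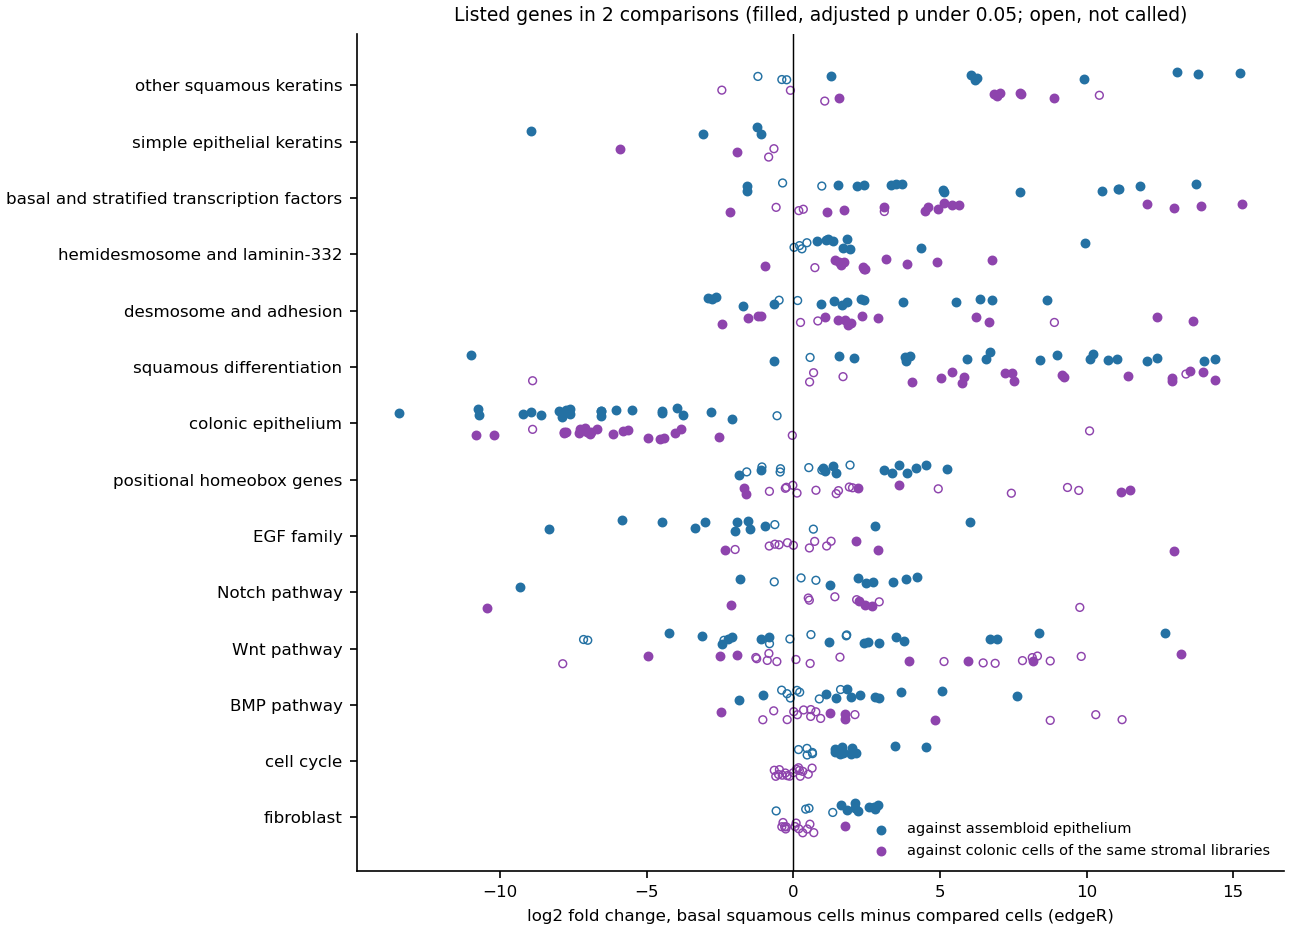
Log2 fold changes of listed genes (x axis, basal squamous minus compared cells), with 1 row per list and 1 point per gene, against assembloid epithelium (blue) and against the colonic cells of the stromal libraries (purple), filled where the edgeR adjusted p is under 0.05. Most points of the colonic list lie below 0 and most of the squamous lists above 0 in both colours, while the cell-cycle points lie above 0 in blue and around 0 in purple; fitted values of genes with 0 UMIs in a group depend on the prior count and are no bound.

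Genes of colonic epithelium were lower in 24 of 25 cases against assembloid epithelium and higher in none, with a median log2 fold change of -7.63. The 96% that were lower stand beside 30.9% of all genes. Genes nearly absent from the basal squamous cells passed the filter on low counts through the epithelial sums alone and could only be called lower. This fixed part of the counts of this list in advance. All 25 were lower than in tissue, beside 29.4% of all genes. Within the stromal libraries 21 of 24 tested were lower (87.5%, beside 6.47% of all genes). There the choice of the colonic cells by Lgals4 fixed part of the count. Cdx1 and Hnf4a, factors of intestinal identity, had 14 and 0 and 8 and 0 UMIs in the basal squamous cells. Their log2 fold changes were -6.58 ± 0.41 (SE, edgeR adjusted p = 6.33e-07) and -7.63 ± 0.39 (SE, edgeR adjusted p = 2.81e-07). The goblet cell genes Tff3, Spink4 and Muc2 had 9 and 0, 15 and 2 and 15 and 2 UMIs. At least 5 Lgals4 UMIs were found in 3 and 0 basal squamous cells.

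Genes were also ranked by size alone among those that averaged 5 or more on the log2 CPM scale over all 8 sums and did not overlap between the groups. This average leaves out genes that are nearly absent from colonic epithelium, so that Krt6a, Krt17, Lgals7 and Dmkn, whose differences are larger, are not in the ranking. In it, the highest 10 log2 fold changes against assembloid epithelium were those of Fabp5, Ifitm3, Hist1h1b, Urah, Tpm2, Ccnd1, Sfn, H2afx, Nfix and Rrm2. Fabp5, the fatty acid binding protein of keratinocytes, stood at 2902 and 4476 CPM against 49.3 and 30.9 and differed by 6.71 ± 0.44 (SE, edgeR adjusted p = 8.01e-07). Tpm2, a tropomyosin, stood at 687 and 591 CPM against 47.7 and 43.2 and differed by 4.03 ± 0.27 (SE, edgeR adjusted p = 8.78e-07). Ccnd1, cyclin D1, stood at 526 and 689 CPM against 40.5 and 52.1 and differed by 3.94 ± 0.28 (SE, edgeR adjusted p = 1.22e-06). These values passed within the stromal libraries too, at 5.82, 4.89 and 1.85. The histone genes Hist1h1b (4.53 ± 0.53 (SE, edgeR adjusted p = 4.16e-05)) and H2afx (3.80 ± 0.36 (SE, edgeR adjusted p = 1.06e-05)) and the nucleotide reductase gene Rrm2 (3.48 ± 0.30 (SE, edgeR adjusted p = 4.62e-06)) did not pass there, at -0.01, 0.32 and 0.64 (edgeR adjusted p = 1.0, 0.71 and 0.21).

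At the other end, the lowest 10 were Tff3 (-10.75 ± 0.51 (SE, edgeR adjusted p = 2.2e-07)), the colonocyte carbonic anhydrase gene Car1 (-10.73 ± 0.72 (SE, edgeR adjusted p = 9.41e-07)), Spink4, Agr2, AA467197, Phgr1, Pls1, Ly6g, Muc2 and Lypd8, the last at -7.77 ± 0.59 (SE, edgeR adjusted p = 1.99e-06). Tff3 stood at 764 and 1327 CPM in assembloid epithelium. Against tissue, and again without genes of a low average such as Ly6d and Krt6a, the highest 3 were Tpm2 (9.47 ± 0.35 (SE, edgeR adjusted p = 3.69e-08)), Sprr1a and Fabp5 (8.17 ± 0.47 (SE, edgeR adjusted p = 1.94e-07)), and the lowest 3 were Spink4 (-11.93 ± 0.56 (SE, edgeR adjusted p = 9.86e-08)), Muc2 (-11.92 ± 0.93 (SE, edgeR adjusted p = 1.37e-06)) and Tff3. Every one of these 6 genes also passed against assembloid epithelium in the same direction.

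The cell-cycle list was higher in 11 of 16 cases and lower in none against assembloid epithelium (median log2 fold change 1.64) and higher in all 16 against tissue. The share called against assembloid epithelium was 68.8%, near the 58.2% of all genes, and nothing is read from that share. The same 68.8% were higher, beside 27.3% of all genes. Against tissue 100% were higher, beside 29.8% of all genes. Within the stromal libraries none of the 16 passed edgeR's test in either direction, and 2 had an unadjusted p under 0.05. Cdk1, the mitotic kinase, stood at 172 and 142 CPM against 47.5 and 45 in assembloid, 130.4 and 101 in organoid and 21.7 and 22.9 in tissue epithelium, and at 167 and 126 in colonic cells of the stromal libraries. Its difference was 1.99 ± 0.27 (SE, edgeR adjusted p = 0.000106) from assembloid epithelium and 0.32 (edgeR adjusted p = 0.608) within the stromal libraries. Mki67, the proliferation marker, stood at 106 and 109 CPM and did not pass against assembloid epithelium (0.46, edgeR adjusted p = 0.127). After thinning, 14.3% and 15.2% of basal squamous cells had a Mki67 UMI, against 15.3% and 12% in assembloid, 31.4% and 34.6% in organoid and 11.3% and 9.69% in tissue epithelium. Before thinning the share was 53.1% and 48.5% in basal squamous and 27.9% and 34.1% in assembloid epithelial cells.

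Hox genes mark position along the body axis, and the last groups of the clusters are active in the hindgut and beyond. Of 20 positional homeobox genes tested, 11 were higher and 2 lower than in assembloid epithelium, 10 and 3 than in tissue, and 4 and 2 than in the colonic cells of the stromal libraries. Against assembloid and tissue epithelium 65% of them were thus called, near the 58.2% and 59.2% of all genes, and nothing is read from the count. Within the stromal libraries 30% were called, where 5.54% of all genes were higher and 6.47% lower. Hoxa9 stood at 58.8 and 61.3 CPM against 36.4 and 32.1 in assembloid and 38.7 and 37.0 in tissue epithelium, and differed by 1.02 ± 0.28 (SE, edgeR adjusted p = 0.0102) from the first. Within the stromal libraries its difference was -0.02 (edgeR adjusted p = 1.0). Hoxb13, of the most caudal group, stood at 36.6 and 34.6 CPM and did not pass against assembloid epithelium (-0.44, edgeR adjusted p = 0.311), but was lower than in tissue by -2.21 ± 0.37 (SE, edgeR adjusted p = 0.000382). It passed as lower than in assembloid epithelium under 5 alternatives and within the stromal libraries. Hoxd13 stood at 11.6 and 19.8 CPM and Hoxa13 at 8.89 and 3.95 CPM. The Hoxc genes that were looked up, Hoxc6, Hoxc8, Hoxc9, Hoxc10 and Hoxc13, had at most 4 UMIs each in the 688 cells of replicate 1 and none in replicate 2.

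Signalling genes were read by pathway and by role. Against assembloid epithelium, 68% of the Wnt, 63.2% of the BMP and 50% of the FGF list were called, near the 58.2% of all genes, and the values of single genes are given for those pathways. The share was 85.7% for the EGF family and 75% for Notch. Against tissue, 72% of the Wnt, 73.7% of the BMP, 80% of the FGF and 85.7% of the EGF list were called. Of all genes it was 59.2%. Within the stromal libraries the shares were 29.2%, 26.3%, 20% and 28.6% in the same order, and 45.5% for Notch. There 5.54% of all genes were higher and 6.47% lower. The EGF family drives growth of gut and skin epithelium through Egfr and its partners. Of its 14 genes, 2 were higher and 10 lower than in assembloid epithelium, and 5 and 7 than in tissue. Within the stromal libraries, however, 3 were higher and 1 lower. Among the ligands, Epgn differed by 6.02 ± 0.48 (SE, edgeR adjusted p = 2.94e-06) and Nrg1, which is made by stroma in the gut, by 2.78 ± 0.48 (SE, edgeR adjusted p = 0.000538), and Nrg1 was also higher within the stromal libraries (2.90 ± 0.61 (SE, edgeR adjusted p = 0.00424)). Areg, amphiregulin, stood at 293 and 299 CPM and did not pass against assembloid epithelium (-0.63, edgeR adjusted p = 0.0547), but was higher than in tissue by 2.06 ± 0.27 (SE, edgeR adjusted p = 6.24e-05). Under 10 of 22 alternatives, DESeq2 and the fit of only the compared groups among them, Areg passed as lower than in assembloid epithelium, at -1.11 to -0.66 (adjusted p of edgeR or DESeq2 from 0.000323 to 0.048). Among receptors and inhibitors, Erbb3 stood at 10.6 and 7.90 CPM against 798 and 535 in assembloid epithelium, and Errfi1 at 26.3 and 27.7 against 717 and 660.4. They differed by -5.86 ± 0.38 (SE, edgeR adjusted p = 8.3e-07) and -4.47 ± 0.29 (SE, edgeR adjusted p = 7.71e-07). Yet colonic cells in the stromal libraries stood at 13.4 and 21.1 and 35.7 and 36.5 CPM, and neither difference passed there, at -0.49 and -0.20 (edgeR adjusted p = 0.621 and 0.819). The receptor Egfr went from -2.01 ± 0.29 (SE, edgeR adjusted p = 0.000173) against assembloid epithelium to 0.73 (edgeR adjusted p = 0.341) within the stromal libraries.

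Notch signalling carries squamous cells from the basal layer to the layers above. Of 12 Notch genes tested, 7 were higher and 2 lower than in assembloid epithelium, and 5 and 2 than in tissue. Against tissue 58.3% were thus called, near the 59.2% of all genes, and nothing is read from that count. Within the stromal libraries 3 of 11 were higher and 2 lower. The receptor Notch1 stood at 72.2 and 73.1 CPM against 3.79 and 5.39 in assembloid epithelium and 19.6 and 15.4 in colonic cells of the stromal libraries. It differed by 4.22 ± 0.24 (SE, edgeR adjusted p = 4.4e-07) and 2.24 ± 0.30 (SE, edgeR adjusted p = 8.74e-05). The ligands Jag1 and Jag2 differed by 2.73 ± 0.36 (SE, edgeR adjusted p = 8.58e-05) and 2.19 ± 0.23 (SE, edgeR adjusted p = 1.94e-05) from assembloid epithelium, and Dll4, a ligand of secretory progenitors, had 0 and 0 UMIs.

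Of 25 Wnt genes tested, 10 were higher and 7 lower than in assembloid epithelium, 13 and 5 than in tissue, and 4 and 3 of 24 within the stromal libraries. The ligand Wnt4 stood at 118 and 164 CPM against 1.15 and 1.48 and differed by 6.95 ± 0.41 (SE, edgeR adjusted p = 4.69e-07). The ligands Wnt7b (8.39 ± 0.43 (SE, edgeR adjusted p = 4.77e-07)) and Wnt10a, at 18.6 and 45.4 CPM with 0 and 1 UMIs in assembloid epithelium, were higher too. The stem cell receptors Lgr5 and Lgr4 stood at 1.51 and 0.988 and 7.32 and 3.95 CPM and were both lower than in assembloid epithelium. Of 19 BMP genes, 10 were higher and 2 lower than in assembloid epithelium, 9 and 5 than in tissue, and 4 and 1 within the stromal libraries. The ligand Bmp7 stood at 26.0 and 28.7 CPM against 0.146 and 0.168 and differed by 7.64 ± 0.39 (SE, edgeR adjusted p = 2.54e-07), and the target gene Id3 stood at 188 and 331 CPM and differed by 2.26 ± 0.31 (SE, edgeR adjusted p = 0.000133). Lower than in assembloid epithelium were the BMP ligand gene Bmp2 and the receptor gene Bmpr1a. Against tissue, Bmp2, Bmpr1a, Id1, Smad6 and Smad7 were lower, and within the stromal libraries Id2 was. Both ligands Wnt4 and Bmp7 were also read in the other stromal-library cells, at 55.3 and 32.6 and 10.3 and 16.0 CPM. Summed, the Wnt list stood at 301 and 344 CPM in the basal squamous cells and at 1089 and 1451 in those other cells. The BMP list stood at 679 and 761 against 3106 and 3413.5 CPM. Among the BMP genes called higher was Mgp, a matrix gene of fibroblasts. The part of RNA from stromal cells in these levels was not tested.

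Of 10 genes of FGF signalling, 4 were higher and 1 lower than in assembloid epithelium, 6 and 2 than in tissue, and 2 and 0 within the stromal libraries. Fgfbp1, which carries FGF ligands, stood at 235 and 312 CPM and differed by 2.46 ± 0.32 (SE, edgeR adjusted p = 8.36e-05), but not within the stromal libraries (0.79, edgeR adjusted p = 0.113). The receptor Fgfr2 was lower than in assembloid epithelium (-2.71 ± 0.30 (SE, edgeR adjusted p = 3.06e-05)) and higher than in the colonic cells of the stromal libraries (1.91 ± 0.46 (SE, edgeR adjusted p = 0.0113)), so its direction turned with the cells compared. The list of wounded and activated keratinocytes was higher in 9 of 18 cases and lower in 3 than in assembloid epithelium, 14 and 1 than in tissue, and 6 and 0 within the stromal libraries. Against assembloid epithelium 66.7% of it was called, near the 58.2% of all genes. Against tissue it was 83.3%, beside 59.2%. Within the stromal libraries 33.3% were higher, beside 5.54% of all genes. The list holds Krt6a, Krt6b, Krt16 and Krt17, given above, and the alarmin Il33, at 226 and 119 CPM and 3.0 ± 0.42 (SE, edgeR adjusted p = 0.000145). The antimicrobial S100a8 and S100a9 of inflamed skin had 2 and 0 and 20 and 0 UMIs, of which 1 cell of replicate 1 held 12 of S100a9. Of hair follicle and skin appendage genes, 2 of 9 were higher and 2 lower than in assembloid epithelium, 5 and 3 than in tissue, and 1 and 1 within the stromal libraries, with Shh, Lhx2 and Edar at 0 and 0, 1 and 0 and 1 and 0 UMIs. Against assembloid epithelium 44.4% of these genes were called, below the 58.2% of all genes, and nothing is read from the count. Against tissue 88.9% were called, beside 59.2%. Within the stromal libraries 22.2% were called, where 5.54% of all genes were higher and 6.47% lower.

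Within the basal squamous cells, Krt13 was spread unevenly. It had no UMI in 344 and 19 cells, 1 or 2 UMIs in 190 and 6, 3 to 9 in 91 and 3, and 10 or more in 63 and 5. The tenth of cells with the most Krt13 held 88.8% and 77.8% of its UMIs, whereas the same share of cells by Lgals7 held 24% and 30.4% and by Krt14 28.3% and 32.6% of theirs. Cells with 10 or more Krt13 UMIs were therefore set beside cells with 2 or fewer (534 and 25), limits chosen after their values were seen, and no test was made. Near the upper limit, 7 and 1 cells had 8 or 9 UMIs and 6 and 0 had 10 to 12.

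Cells high in Krt13 were also high in other genes of the layers above the basal one, given here as the ratio of CPM + 10. Ly6d stood at 3501 and 4860 CPM in Krt13-high and 101 and 171 in Krt13-low cells, a ratio of 31.7 and 26.9. Krt4, the partner of Krt13, stood at 606 and 1145 against 22.6 and 1.27 CPM (18.9 and 102 times). Calm4, a calmodulin-like protein of stratified epithelium, differed by 16.5 and 159 times, the retinoic acid carrier Crabp2 by 10.9 and 48.9 times, and Sprr1b by 7.29 and 25 times. In replicate 2 these levels rest in large part on 1 of the 5 Krt13-high cells, which had 16 Krt13 UMIs and held 283 of the 311 Calm4, 69 of the 81 Crabp2, 85 of the 153 Krt4 and 433 of the 912 Ly6d UMIs of all 33 cells. Without that cell Sprr1b stood at 128 CPM over the replicate. In replicate 2 the 5 Krt13-high cells would stand at 2109 CPM of Ly6d, 688 of Krt4, 237 of Calm4, 248 of Sprr1b and 0 of Crabp2 without it, and in replicate 1 Calm4 would fall from 207 to 114 CPM without the 1 cell that had the most. Krt17 ran the other way in both libraries, and so did the genes of the membrane anchor, of which all 13 were lower in the Krt13-high cells of both libraries, beside 43.8% of 8281 genes with at least 10 CPM in any of the 4 sums. Krt17 stood at 80.9 and 172 CPM against 739 and 2126 (0.121 and 0.0854 times), Itga3 at 34.7 and 7.84 against 113 and 136, Col17a1 at 66.7 and 47.0 against 203 and 128, and Itgb4 at 84.6 and 62.7 against 205 and 199. Of the 3 basal keratins that chose all of these cells, Krt5 stood at 3149 and 2524 CPM in Krt13-high and 2479.9 and 2897 in Krt13-low cells, Krt14 at 6361 and 7956 against 4289.5 and 5750.1 CPM, and Krt15 at 7087 and 3802 against 3346 and 1526 CPM. Krt15 was thus higher in the Krt13-high cells of both libraries, while Krt5 lay at 1.27 and 0.872 times. Krt14 was higher in replicate 1, but in replicate 2 the same single cell held 703 of the 1015 Krt14 UMIs of the 5 cells. Without it Krt14 stood at 3519 CPM, below the Krt13-low cells, and the median per cell was 73 UMIs in Krt13-high and 167 in Krt13-low cells there. The cell-cycle list summed to 1319.7 and 196 CPM in Krt13-high and 2299 and 2194 in Krt13-low cells, and the replicate 2 value of the Krt13-high cells rests on 5 cells. The median depth was 27553 and 16337 UMIs in Krt13-high and 21272 and 28809 in Krt13-low cells, so depth moved in opposite directions in the replicates.

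**Figure D4:**
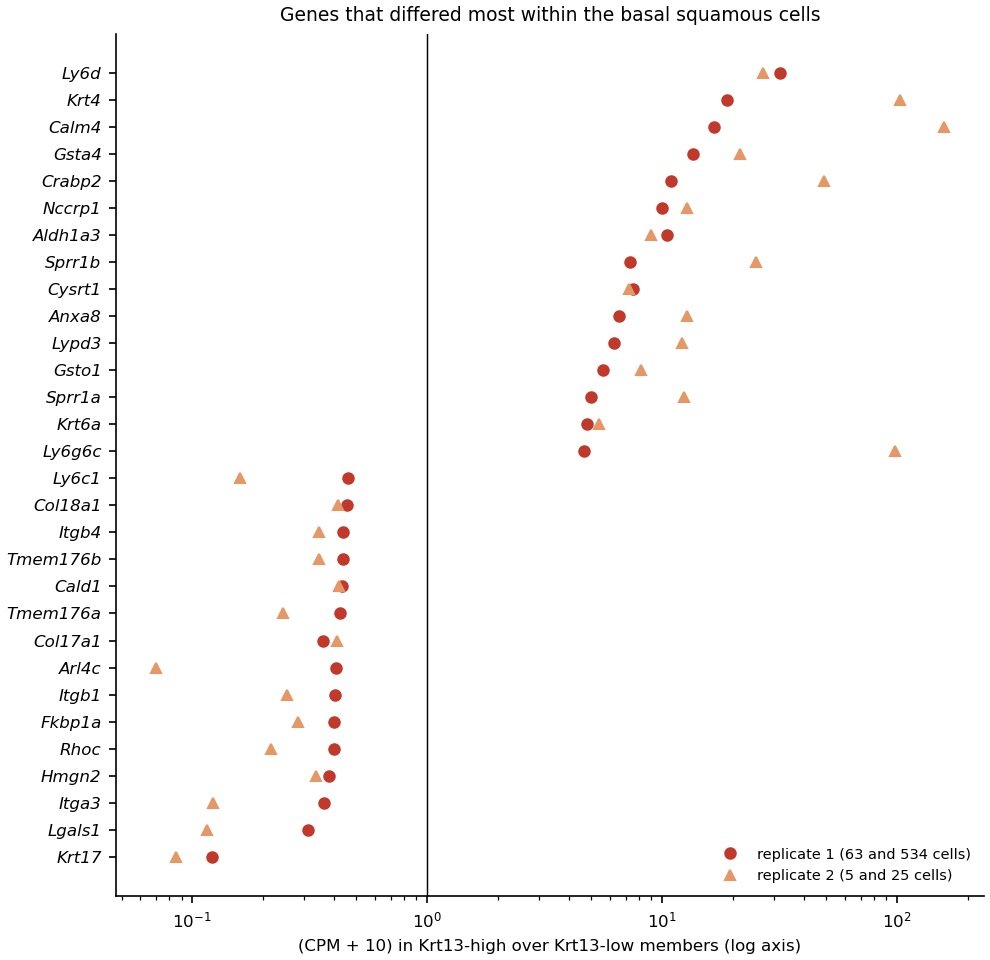
Ratio of CPM + 10 between basal squamous cells with 10 or more Krt13 UMIs (63 and 5 cells) and with 2 or fewer (534 and 25 cells), on a log axis, for the 15 genes that were highest and the 15 that were lowest in the Krt13-high cells, with 1 point per stromal library. Ly6d and Krt4 lie above 1 and Krt17 and Itga3 below 1 in both libraries; the genes and cells were chosen by the data, no test was made, and 1 cell carries much of the replicate 2 ratios.

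The 33 basal squamous cells of replicate 2 resembled the 688 of replicate 1 in most genes. Of 1387 genes with at least 100 CPM in either library, 27 (1.95%) differed over 2-fold between the libraries (CPM + 1). The other cells of the stromal libraries differed over 2-fold in 2.17% and tissue epithelium in 0.0573% of such genes. Among the 27, Krt16 (157 and 698 CPM), Krt17 (620.0 and 1694), Krt6b (8.17 and 137) and the mesenchymal filament gene Vim (45.3 and 264) were higher in replicate 2, and Krt7 (406 and 115) and Mgp, a matrix gene of fibroblasts (127 and 43.5), in replicate 1. Outside the 27, since they differed less than 2-fold or lay below 100 CPM in both libraries, Krt15 (3950 and 2129), Krt13 (331 and 187) and Mir205hg, the host gene of a microRNA of stratified epithelium (80.4 and 22.7), stood higher in replicate 1 and Spink5, a protease inhibitor of upper layers (3.75 and 73.1), in replicate 2. With 1 library per side, these differences between replicates have no test. Several of the replicate 2 levels came from single cells. The Krt13-high cell described above held 136 of the 139 Krt6b, all 74 Spink5 and 343 of the 706 Krt16 UMIs, and without it Krt6b stood at 3.08, Spink5 at 0 and Krt16 at 373 CPM in replicate 2. It also held 559 of the 914 Sprr1a UMIs, without which Sprr1a stood at 365 CPM. Without the same cell Dmkn stood at 325, Ly6d at 492, Ivl at 18.5 and Krt10 at 21.6 CPM in replicate 2. Another cell held 241 of the 267 Vim UMIs, and without it Vim stood at 27.6 CPM. Krt17 was spread more widely, at 1566 CPM without the cell that had the most of its UMIs.

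**Figure D5:**
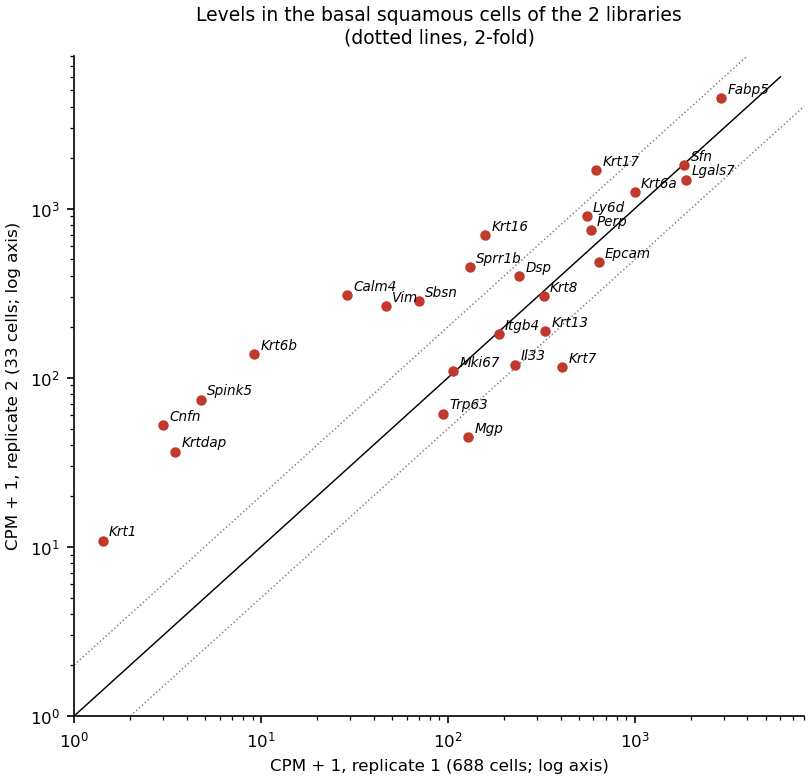
CPM + 1 of 27 genes, picked to show both like and unlike levels, in the basal squamous cells of stromal replicate 1 (x axis, 688 cells) and replicate 2 (y axis, 33 cells), both on log axes, with the diagonal marking equal levels. Lgals7, Sfn, Krt6a, Itgb4 and Krt8 lie within the dotted lines of 2-fold and Krt7 and Mgp below them, while Krt17 and Krt16 lie above, as do Krt6b, Spink5, Calm4 and Vim, whose replicate 2 levels come mostly from 1 cell each.

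Results were also computed without replicate 1, which held 688 of the 721 cells. Then 2434 genes were higher and 2017 lower than in assembloid epithelium, and 3243 were higher and 2517 lower than in tissue, in each case by a factor above 1.5 fewer than with both. Of 80 gene differences followed through the alternatives, 74 kept their direction and side of the threshold. Krt18, Krt19, Hoxa9, Hoxb7 and Ldha no longer passed, while Krt7 now did. The lone replicate is assumed in that fit to vary like the other groups. Without replicate 2, Krt18, Sprr1a and Ldha no longer passed and the other 77 kept their calls. The genes of squamous identity named above, Trp63, Krt6a, Krt13, Col17a1, Lgals7 and Sfn, thus stayed higher than in assembloid epithelium with either library alone. Trp63, Krt6a, Col17a1 and Lgals7 were nearly absent from assembloid epithelium and could only be called higher, so their direction was fixed in advance. With the correction measured in fibroblasts, given above, these genes lost their calls and Krt13 changed direction.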

How the data were processed

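Cells had been barcoded and libraries made with the 10x Genomics 3′ v3 chemistry. The authors deposited UMI counts per gene (32285 genes) and cell barcode for 8 libraries, with no normalization. Cell Ranger 6.0.1 (stroma) and 7.1.0 (epithelium) are named in the matrix headers, while the submitters' processing notes give Cell Ranger 6 and mm10 for all. Whether intronic reads were counted is not given in the sources used here. Total UMIs per library ranged from 99133978 to 191255856.

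Barcodes were kept from 500 detected genes upward and up to 10% of UMIs in mitochondrial genes, the study's stated limits. This left more cells in the stromal and assembloid epithelial libraries than its methods count, and fewer in the organoid and tissue libraries. The compared cells of assembloid epithelium had medians of 3370 and 13450 UMIs in replicates 1 and 2. The members and gene lists were chosen with earlier results of these data known. Epithelial cells for the comparison had at most 5 UMIs of Col1a2 and of Col3a1 and at most 2 of Tyrobp and of C1qb, and genes used to choose cells are not reported as test results. UMIs were summed per library and class into 8 sums, filtered on low counts with filterByExpr, scaled by TMM and fitted together with edgeR 4.0.16 (glmQLFit and glmQLFTest, residual degrees of freedom 4, common dispersion 0.0575) in R 4.3.3. Adjusted p-values are by Benjamini-Hochberg, a standard error (SE) is the log2 fold change divided by the root of F, and n is 2 sums per group. The study's methods call the replicates of each group biological and name 2 mice for the stroma; which mice lie behind the epithelial libraries is not given in the sources used here, and the p-values measure the spread between these libraries.

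Genes named are those of the lists, the 10 highest and 10 lowest log2 fold changes against assembloid epithelium (3 and 3 against tissue) that passed the test, averaged 5 or more on the log2 CPM scale and did not overlap, without mitochondrial, ribosomal, immunoglobulin, haemoglobin and Gm genes, and the 20 highest ratios to the other stromal-library cells. Some list members are counted but not reported here by name. Alternatives were DESeq2 1.42.0, no count filter, other limits on cells and members, a replicate block, leaving out each sum, a threshold on fold size (glmTreat) and a correction measured in fibroblasts. Shares were compared after thinning to 2000 UMIs per cell, no doublet caller was run, and intervals cover counting error only. Positions are from GENCODE M21 and promoters from RefSeq. Counting ran in Python 3.11.15 with numpy 2.4.6, scipy 1.17.1 and pandas 2.3.3.

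The correlation of the differences between replicates 1 and 2 over 3778 genes ranged from -0.101 to 0.0151 between the basal squamous cells and the epithelial groups, and from -0.232 to 0.341 among the epithelial groups. Not every pair exceeded 0.1, so the numbers were not taken as pairing the samples and the main fit has no block.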

Additional observations from a re-analysis of the deposited data

How the results depend on the processing

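Of 1754 repeats of 80 gene differences under the alternatives, 1638 kept their direction and their side of the threshold. A threshold of 2-fold (glmTreat) left 2569 genes higher than in assembloid and 3382 than in tissue epithelium. Leaving out 1 sum at a time gave 2434 to 4946 genes higher and 2017 to 6980 lower than in assembloid epithelium, and 3243 to 5831 higher and 2517 to 6598 lower than in tissue. The lowest of each came without stromal replicate 1, and without tissue replicate 1 or 2 the higher counts were 3220 and 3226 against assembloid and 3289 and 3440 against tissue epithelium. Within the stromal libraries, where 33 and 25 colonic cells were compared, 999 genes were higher and 1167 lower. The share of basal squamous cells moved with the Col1a2 limit, to 4.191% (at most 1 UMI) and 10.22% (no limit) in replicate 1 and to 0.1105% (at most 1 UMI) in replicate 2.

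Subtracting the shift between stromal and epithelial libraries, measured in 62 and 20 fibroblasts of the assembloid epithelial libraries, left 665 genes higher and 833 lower than in assembloid epithelium and 1650 higher and 1671 lower than in tissue. It ended the call of 36 of the 80 differences, named above, and turned 14. Some of the 36 then had larger log2 fold changes, such as Cdh3 (9.27), Gata3 (6.02) and Perp (4.96). Others had smaller ones, such as Trp63 (4.23), Krt6a (1.90) and Lgals7 (0.73). Krt8 could not be measured, since the fibroblasts were chosen with no UMI of it. Krt18 (2.59, edgeR adjusted p = 0.00314), Krt19 (3.17, edgeR adjusted p = 0.00619), Epcam (3.04, edgeR adjusted p = 0.00831), Cdh1 (2.93, edgeR adjusted p = 0.0102) and Dsg2 (3.33, edgeR adjusted p = 0.0028) passed in the other direction. Rrm2 (-0.33), Hoxb7 (-2.24), Erbb3 (0.33) and Cdk1 (-0.24) did not pass, nor did Barx2 (-1.20), Krt13 (-2.91), Dsg3 (-4.02), Jag2 (-5.00) and Ly6d (-6.17), whose SEs were 16.4 to 47.8. Those fibroblasts held 0 UMIs of Trp63, Barx2, Krt13, Dsg3, Jag2 and Ly6d (a floor of 3 UMIs is 6.84 and 12.2 CPM) and 93.5 and 101.5 CPM of Epcam, against 4.04 and 1.43 in fibroblasts of the stromal libraries. Within the stromal libraries 4 differences turned, Hist1h1b (-0.0053), Hoxa9 (-0.0183), Egfr (0.73) and Fgfr2 (1.91), and 10 lost their call, of which H2afx, Rrm2, Krt18, Krt19, Erbb3, Errfi1, Fgfbp1 and Cdk1 are given above and Hoxa11 and Ldha are the others. Without stromal replicate 1 the calls of Krt18, Krt19, Hoxa9, Hoxb7 and Ldha against assembloid epithelium were lost and Krt7 passed, and without stromal replicate 2 those of Krt18, Sprr1a and Ldha were lost. Hoxa9 also lost its call without tissue replicate 1 or 2, Ldha without any 1 of the epithelial libraries, and Sprr1a with at most 5% mitochondrial UMIs or at most 1 Col1a2 UMI. Without assembloid replicate 2 Sprr2a3 passed, without any 1 organoid or tissue library Areg passed, and without either organoid library Hoxb13 passed. The cause of these changes was not tested.

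With the replicate number as a block, 5004 genes were higher and 5712 lower than in assembloid epithelium, and 5509 higher and 5389 lower than in tissue, and none of the 80 gene calls changed. The numbers were not taken as pairing the samples, and the correlations above cannot settle whether they do. In the 33 cells of replicate 2, genes under about 3 UMIs (2.96 CPM) could not be told from 0.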

Other observations

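Genes of antigen presentation and of the interferon response were read in the basal squamous cells. Of 9 tested, 2 were higher and 1 lower than in assembloid epithelium, 6 and 1 than in tissue, and 3 and 1 within the stromal libraries. The share called against assembloid epithelium, 33.3%, lay below the 58.2% of all genes, and against tissue it was 77.8%, beside 59.2%. Within the stromal libraries it was 44.4%, where 5.54% of all genes were higher and 6.47% lower. The chemokine gene Cxcl10 stood at 24.3 and 51.4 CPM against 29.7 and 21 in assembloid and 0.532 and 0.704 in tissue epithelium, and passed against tissue but not against assembloid epithelium. In replicate 1 a single cell held 178 of the 402 Cxcl10 UMIs, and without it the level was 13.6 CPM. The class II gene H2-Ab1 stood at 17.3 and 5.93 CPM, while its partners H2-Aa and Cd74 had 0 and 0 and 3 and 0 UMIs. In the other cells of the stromal libraries the interferon genes lay apart between the replicates, with Isg15 at 101 and 349.9 CPM, whereas in the basal squamous cells it stood at 8.05 and 9.88 CPM (5.27 in replicate 1 without the cell that had the most).

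Of 10 genes of hypoxia and glycolysis, 2 were higher and 6 lower than in assembloid epithelium, 8 were higher and 1 lower than in tissue, and 1 was higher and 1 lower within the stromal libraries. The shares called were 80% and 90% in the first and second of these, beside 58.2% and 59.2% of all genes. In the third it was 20%, where 5.54% of all genes were higher and 6.47% lower. Ldha, lactate dehydrogenase A, stood at 2269 and 2336 CPM against 1475 and 1665 in assembloid, 1503 and 1417 in organoid and 451 and 543 in tissue epithelium, and differed by 0.77 ± 0.27 (SE, edgeR adjusted p = 0.0288) from the first and by 2.80 ± 0.29 (SE, edgeR adjusted p = 1.01e-05) from the third. The first of these calls was lost under 14 of 22 alternatives. Slc2a1, the glucose transporter of many dividing cells, stood at 136 and 95.8 CPM, lower than in assembloid epithelium (252 and 285) and higher than in tissue (55.1 and 65.5) and in the colonic cells of the stromal libraries (47.3 and 66.0), so its direction turned with the cells compared.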
